A study of Rattus norvegicus with 24 samples.

Results

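Mki67, Top2a, Pbk, Depdc1 and Gtse1 are 5 genes that dividing cells switch on, and their transcripts were followed here in rat lung tissue. They were chosen by name, 5 of the 32883 genes in the deposited count table, with earlier results of these data known. Shares of all genes are therefore given beside their counts for scale only. All 5 passed the filter on low counts in every comparison. MCT rats were male Sprague-Dawley rats, labelled WT, that received 1 intraperitoneal injection of monocrotaline at 50 mg/kg, and their lungs were taken after 7 days (Week-1), 14 days (Week-2) or 21 days (Week-3). PBS rats were males of the same strain, injected with buffer and killed on the same days. There were 4 rats in each of the 6 groups and 1 RNA-seq library per rat, 24 in all. The lungs were perfused before collection, and a piece of lung tissue of each rat was homogenised without sorting its cells. Each library thus mixes the RNA of the cell types of that piece, and no rat gave tissue at more than 1 time. Monocrotaline is a plant alkaloid that the liver turns into a reactive pyrrole, which injures the endothelium of the lung vessels, and the resulting pulmonary hypertension has made it a standard rat model of that disease.

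A cell that prepares to divide copies its DNA in S phase, checks it in G2 and separates the copies in mitosis. Each of the 5 proteins acts in the second part of this programme. Ki-67, the product of Mki67, coats the surface of mitotic chromosomes and keeps them apart, and topoisomerase II alpha, the product of Top2a, untangles the copied DNA strands. Pbk is a protein kinase that becomes active in mitosis, Depdc1 is a DEP domain protein that human cells make mostly in mitosis, and Gtse1 binds microtubules and, in human cells, the tumour suppressor p53. Resting adult lung holds few cycling cells, and the transcripts of such genes are widely used to gauge how many cells are in cycle.

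Genes of this programme are often held silent in resting cells through a promoter element called the CHR, usually near a CCAAT box that the factor NF-Y binds, while genes of the S phase more often carry E2F sites. The promoters of the members are therefore shown, to let a reader see where these letters stand in genes that were all higher in MCT lungs of Week-2. RefSeq promoters on the GRCr8 assembly, each running from 250 bases before to 50 bases after the annotated start, were matched for 4 of the 5 members (Mki67, Top2a, Depdc1 and Gtse1). Capitals mark every match on either strand to the CHR letters, which are TTTGAA and its variant with the letters TTCGAA, and to the CCAAT box, whose letters are CCAAT.
Mki67 (chr1:199952544-199952843, minus strand): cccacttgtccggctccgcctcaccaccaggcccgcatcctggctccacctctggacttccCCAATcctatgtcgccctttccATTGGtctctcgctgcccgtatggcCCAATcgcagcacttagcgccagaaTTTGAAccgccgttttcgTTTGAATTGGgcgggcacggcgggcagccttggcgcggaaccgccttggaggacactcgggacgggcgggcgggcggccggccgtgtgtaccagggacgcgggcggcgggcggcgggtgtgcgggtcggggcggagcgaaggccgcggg
Top2a (chr10:84473044-84473343, minus strand): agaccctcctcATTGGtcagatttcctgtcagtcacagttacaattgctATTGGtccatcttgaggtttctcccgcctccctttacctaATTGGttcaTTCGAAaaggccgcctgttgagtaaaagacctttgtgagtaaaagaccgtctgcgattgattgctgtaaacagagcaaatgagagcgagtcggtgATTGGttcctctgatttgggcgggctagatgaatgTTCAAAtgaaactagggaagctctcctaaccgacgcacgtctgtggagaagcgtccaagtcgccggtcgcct
Depdc1 (chr2:251343031-251343330, plus strand): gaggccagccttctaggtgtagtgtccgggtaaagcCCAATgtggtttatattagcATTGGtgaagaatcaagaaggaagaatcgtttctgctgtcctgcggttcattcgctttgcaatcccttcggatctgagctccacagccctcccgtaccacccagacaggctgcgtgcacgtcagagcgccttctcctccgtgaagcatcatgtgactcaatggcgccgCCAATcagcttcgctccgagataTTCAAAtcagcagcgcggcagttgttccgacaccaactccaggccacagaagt
Gtse1 (chr7:118829923-118830222, plus strand): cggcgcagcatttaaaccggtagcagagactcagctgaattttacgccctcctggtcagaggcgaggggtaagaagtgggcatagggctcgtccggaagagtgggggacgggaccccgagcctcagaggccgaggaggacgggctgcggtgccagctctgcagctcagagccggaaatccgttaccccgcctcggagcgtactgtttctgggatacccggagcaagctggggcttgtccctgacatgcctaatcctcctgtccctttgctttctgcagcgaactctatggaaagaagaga

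The Mki67 promoter held 2 CHR matches, whose first bases lay 117 and 99 bases before the start, and 4 CCAAT matches. The nearer CHR match shares its last base with a CCAAT match on the other strand. The Top2a promoter also held 2 CHR matches, at 152 and 22 bases before the start, and 4 CCAAT matches between 239 and 57 bases before it. Depdc1 had 1 CHR match, which begins 3 bases before the start, and 3 CCAAT matches. Gtse1 had neither in this window. No member's window held the E2F-like letters TTTCGCGC, TTTGGCGC, TTTCCCGC or TTTGGCGG. Of 33469 rat promoters of the same length, 19.7% held a CHR match, 37.5% a CCAAT match, 7.95% both and 2.18% an E2F-like match. A match is a run of letters and not evidence of binding, and its absence from 300 bases says nothing of the factor.

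In the Rnor_6.0 coordinates of the deposited table, Mki67 (ENSRNOG00000028137) lies at chr1:207993895-208020454 on the minus strand, with 15 exon intervals and 9880 exonic bases. Top2a (ENSRNOG00000053047) lies at chr10:86901007-86932154 on the minus strand, with 35 exon intervals and 5589 bases. Pbk (ENSRNOG00000015308) lies at chr15:42489377-42500395 on the plus strand, with 8 exon intervals and 1830 bases. Depdc1 (ENSRNOG00000009503) lies at chr2:264704769-264738257 on the plus strand, with 12 exon intervals and 3301 bases. Gtse1 (ENSRNOG00000016148) lies at chr7:126736732-126753220 on the plus strand, with 11 exon intervals and 2645 bases. No other gene model of the table overlapped a member. RefSeq lists rat pseudogenes named Mki67-ps1 and Pbk-ps1, so some reads of Mki67 and Pbk could have been shared with them.

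The libraries held between 19804731 and 32835200 counts. PBS replicates 1 and 3 of Week-1 stood apart from the rest: they held 19804731 and 20509197 counts against at least 28357609 in the other 22 libraries, 14706 and 12491 genes reached 10 counts against at least 15614, and their log2 deviations from the median of their week had a standard deviation of 1.61 and 2.36 against at most 1.06. The main values of Week-1 are given with and without them, and without them 2 PBS rats remain in that week. Markers of the lung epithelium (Ager, Sftpa1 and Scgb1a1) summed to between 8541 and 29677 CPM (counts per 1000000 counts of the library, scaled by TMM factors) over the 24 libraries, and none was at 0 in a group, which fits the labelled tissue.

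The first question was whether the 5 genes were higher in MCT lungs than in the PBS lungs of the same week. All 5 stood above PBS in each of the 4 MCT rats in Week-1 and again in Week-2, and in Week-3 this held for Gtse1 alone. Over all genes tested, the 4 MCT libraries were all above the 4 PBS libraries for 4.99% of genes in Week-1, 12% in Week-2 and 16.2% in Week-3. In RNA of unsorted lung tissue, more cells expressing a gene and more RNA per cell cannot be told apart.

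**Figure D1:**
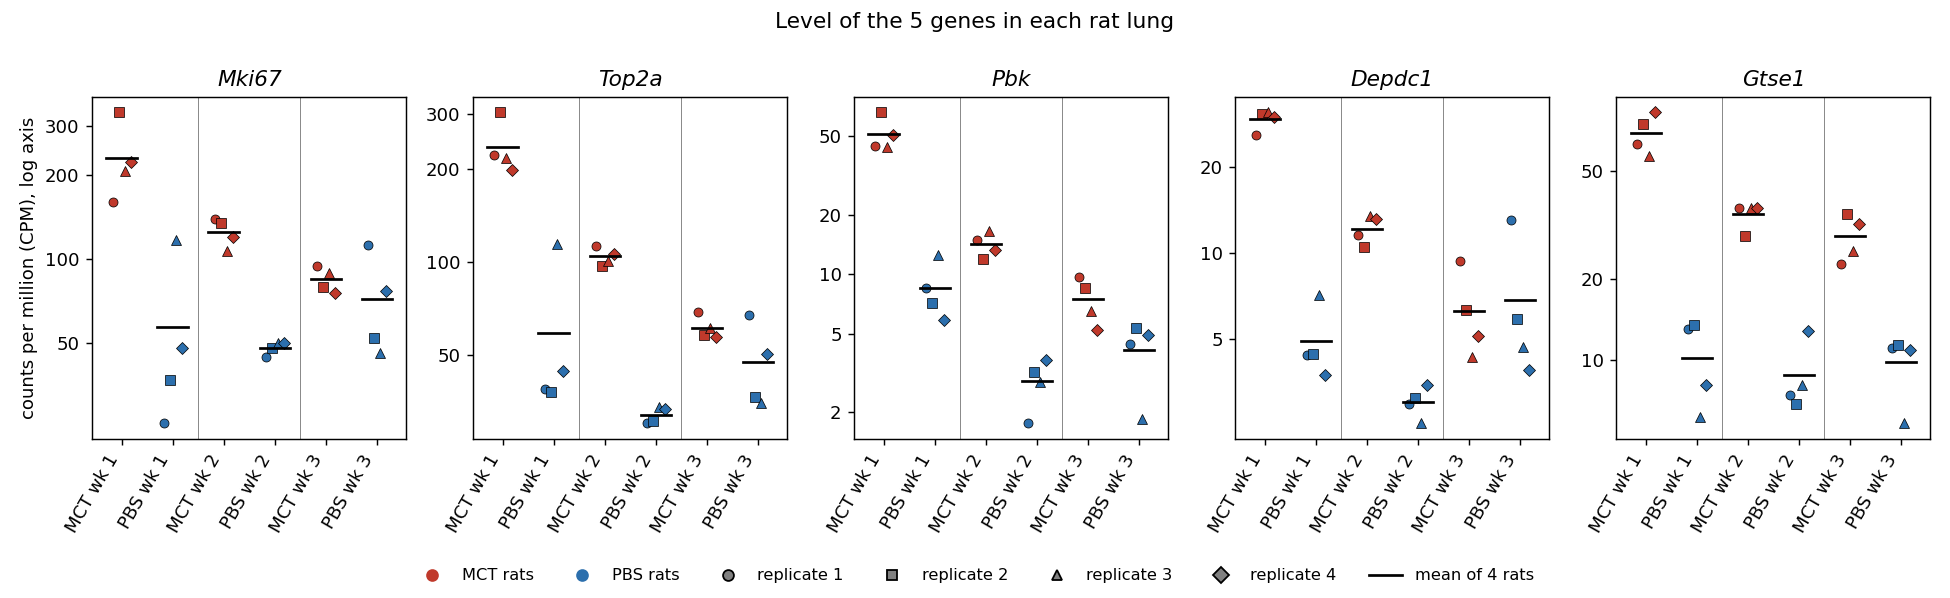
Level of Mki67, Top2a, Pbk, Depdc1 and Gtse1 in each rat, in CPM on a log axis, with MCT rats in red, PBS rats in blue, 1 symbol per replicate number and a bar at the mean of 4 rats. Every MCT value of Weeks 1 and 2 lies above every PBS value of its week, the groups overlap in Week 3 except for Gtse1, and PBS replicate 3 of Week 1 is the highest of its group for Mki67, Top2a, Pbk and Depdc1 and the lowest for Gtse1.

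In Week-1, Mki67 reached 160, 337, 207 and 224 CPM in the MCT rats, against 25.6, 36.6, 117 and 47.7 CPM in the PBS rats. The PBS rat at 117 CPM was replicate 3, a library that stood apart, and without replicates 1 and 3 the PBS mean was 42.1 CPM in place of 56.8. Top2a gave the same picture, with 221, 304, 217 and 198 CPM in MCT rats against 39.0, 37.9, 114 and 44.5 CPM in PBS rats. For both genes the gap between the groups was narrow at that 1 PBS rat and wide at the others.

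The other members were measured at lower levels and were farther apart between the groups. Pbk was at 44.9, 66.2, 44.1 and 50.6 CPM in MCT rats, against 8.51, 7.15, 12.6 and 5.85 CPM in PBS rats. Depdc1 was at 25.8, 30.6, 31.0 and 29.9 CPM in MCT rats, against 4.38, 4.44, 7.11 and 3.73 CPM in PBS rats. Gtse1 was at 63.3, 75.2, 57.0 and 82.7 CPM in MCT rats, against 13.1, 13.5, 6.14 and 8.09 CPM in PBS rats. PBS replicate 3 was the lowest of its group for Gtse1, while it was the highest for the other 4 members.

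Of the 5 members, 3 passed the test in Week-1, all higher in MCT rats, beside 0.0703% of all 15658 genes tested (passing means an edgeR quasi-likelihood p, adjusted by Benjamini-Hochberg over all genes, under 0.05 and a fold change above 1.5). Gtse1 had a log2 fold change of 2.77 (SE 0.322, edgeR adjusted p = 0.0329), Pbk of 2.60 (SE 0.313, same adjusted p) and Depdc1 of 2.58 (SE 0.315, same adjusted p), and by unadjusted p they ranked 4th, 5th and 6th of all genes. Mki67 and Top2a had log2 fold changes of 2.04 (SE 0.484, edgeR adjusted p = 0.236) and 2.00 (SE 0.395, edgeR adjusted p = 0.137) and did not pass. With PBS replicates 1 and 3 both left out, all 5 passed, beside 1.53% of 16571 genes called higher, at log2 fold changes of 2.46 for Mki67, 2.51 for Top2a, 2.98 for Pbk, 2.84 for Depdc1 and 2.68 for Gtse1. The 3 calls of Week-1 were lost when any single MCT library, or PBS replicate 2 or 4, was left out, and all 5 genes passed without PBS replicate 3.

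In Week-2 the replicates of each group lay close together for Mki67 and Top2a. Mki67 was at 139, 135, 107 and 119.6 CPM in MCT rats, against 44.4, 47.9, 49.8 and 50.1 CPM in PBS rats. Top2a was at 113, 97.3, 100.3 and 106 CPM in MCT rats, against 30.1, 30.7, 34.1 and 33.5 CPM in PBS rats. Both genes had a coefficient of variation between 5.49% and 11.7% in these groups, against 72.7% for Mki67 in the PBS rats of Week-1. In the PBS rats of Week-2 it was 28.4% for Pbk, 12.6% for Depdc1 and 30.9% for Gtse1.

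Pbk was at 14.9, 11.9, 16.7 and 13.4 CPM in MCT rats of Week-2, against 1.76, 3.21, 2.85 and 3.68 CPM in PBS rats, where it was counted 54 to 112 times per library. Depdc1 was at 11.5, 10.5, 13.4 and 13.1 CPM in MCT rats, against 2.96, 3.11, 2.53 and 3.45 CPM in PBS rats. Gtse1 was at 36.5, 28.9, 36.7 and 36.7 CPM in MCT rats, against 7.39, 6.87, 8.07 and 12.8 CPM in PBS rats. The groups stood well apart for each of these genes, although Gtse1 had 1 lower MCT rat and 1 higher PBS rat.

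All 5 members passed the test in Week-2, all higher in MCT rats, beside 6% of 16108 genes tested. The log2 fold change was 2.30 for Pbk (SE 0.225, edgeR adjusted p = 9.04e-05), 2.01 for Depdc1 (SE 0.165, edgeR adjusted p = 3.69e-05) and 1.98 for Gtse1 (SE 0.190, edgeR adjusted p = 8.12e-05). It was 1.69 for Top2a (SE 0.0827, edgeR adjusted p = 9.94e-07) and 1.38 for Mki67 (SE 0.0994, edgeR adjusted p = 1.53e-05). Pbk thus had the largest fold change of the 5 and Mki67 the smallest, while Top2a had the smallest p, 8th of all genes. The count of 5 held in every alternative fit that was run.

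In Week-3 the groups overlapped for 4 of the 5 genes. Mki67 was at 94.8, 79.1, 89.4 and 75.3 CPM in MCT rats, against 112, 52.2, 46.0 and 76.8 CPM in PBS rats. Top2a was at 68.9, 58.3, 61.3 and 57.1 CPM in MCT rats, against 67.5, 36.6, 35.0 and 50.3 CPM in PBS rats. PBS replicate 1 was the highest of its group for both and, for Mki67, above every MCT rat.

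Depdc1 was at 9.35, 6.29, 4.33 and 5.13 CPM in MCT rats of Week-3, against 13.01, 5.86, 4.68 and 3.89 CPM in PBS rats, with PBS replicate 1 again the highest. Pbk was at 9.65, 8.53, 6.49 and 5.23 CPM in MCT rats, against 4.46, 5.36, 1.85 and 4.94 CPM in PBS rats, and here PBS replicate 1 was not the highest. Gtse1 was at 22.6, 34.9, 25.3 and 32.0 CPM in MCT rats, against 11.05, 11.4, 5.82 and 10.9 CPM in PBS rats. The lowest MCT rat for Gtse1 was still above the highest PBS rat.

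Of the 5 members, 1 passed the test in Week-3, beside 11.1% of 16138 genes tested: Gtse1 was higher in MCT rats, with a log2 fold change of 1.54 (SE 0.229, edgeR adjusted p = 0.000826). That count is close to the background and is no result about the set. Pbk had a log2 fold change of 0.83 (SE 0.341, edgeR adjusted p = 0.0862), Top2a of 0.36 (SE 0.190, edgeR adjusted p = 0.176) and Mki67 of 0.22 (SE 0.239, edgeR adjusted p = 0.512). For Depdc1 it was -0.15 (SE 0.392, edgeR adjusted p = 0.807), and it was 0.36 without PBS replicate 1 and 0.02 without MCT replicate 3, so it had no settled sign. Gtse1 passed whichever library of the week was left out. Pbk passed with DESeq2 and in a fit of 22 libraries, which brought the count to 2.

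**Figure D2:**
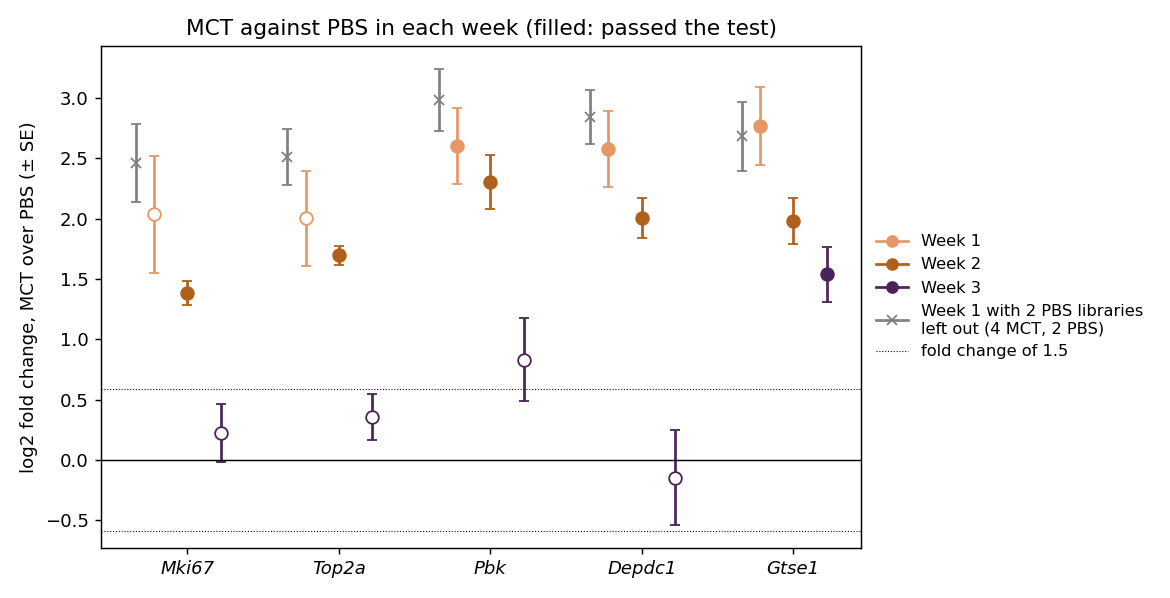
Log2 fold change of MCT over PBS rats in each week for each gene, with its standard error, filled where the gene passed the test, and the Week 1 value with PBS replicates 1 and 3 left out as a grey cross. The values of Weeks 1 and 2 lie between 1.38 and 2.77 for all 5 genes, and in Week 3 only Gtse1, at 1.54, passed.

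The next question was whether the difference itself changed between weeks, tested as an interaction over all 24 libraries. Compared with Week-1, the MCT against PBS difference of Week-3 was smaller for 4 of the 5 members, beside 2.51% of 17206 genes called lower. The change was -2.71 on the log2 scale for Depdc1 (SE 0.451, edgeR adjusted p = 0.00258), -1.62 for Top2a (SE 0.382, edgeR adjusted p = 0.0196), -1.75 for Pbk (SE 0.432, edgeR adjusted p = 0.0244) and -1.79 for Mki67 (SE 0.479, edgeR adjusted p = 0.0359). For Gtse1 it was -1.22 (SE 0.367, edgeR adjusted p = 0.0596), which did not pass, and whether its change differed from those of the other 4 was not tested. The count of 4 fell to 1 without MCT replicate 2 of Week-1 or when only the 16 libraries of Weeks 1 and 3 were fitted, and to 2 without MCT replicate 3 or 4 of Week-3. It rose to 5 without PBS replicates 1 and 3 of Week-1.

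None of the 5 passed for the step between Week-1 and Week-2, where 0% of 17206 genes were called lower by edgeR (at an unadjusted p under 0.05, 1 member was lower, Gtse1 at -0.79, beside 2.29% of genes, and 900 genes changed, while DESeq2 called 0 members and 39 genes). None passed for the step between Week-2 and Week-3 either, where 0.0523% of genes were called lower by edgeR, although the changes ran to -2.14 for Depdc1 (SE 0.4495, edgeR adjusted p = 0.0804). At an unadjusted p under 0.05, 4 members had a lower difference at that step, beside 6.25% of genes, DESeq2 called 1, and 4 passed when only the 16 libraries of Weeks 2 and 3 were fitted, when PBS replicates 1 and 3 of Week-1 were left out, or with limma-voom and sample quality weights.

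Within MCT rats, all 5 members were lower in Week-2 than in Week-1, beside 2.19% of 16593 genes called lower. Pbk fell the most, to 14.2 ± 2.05 CPM in Week-2, against 51.5 ± 10.2 CPM in Week-1 (SD, n = 4 each), a log2 fold change of -1.85 (SE 0.189). Depdc1 had a log2 fold change of -1.26, Top2a of -1.16, Gtse1 of -0.996 and Mki67 of -0.88, with edgeR adjusted p from 0.000123 for Pbk to 0.0113 for Mki67. The 5 calls remained whichever library was left out.

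The fall went on in Week-3 for 3 of the 5 members, beside 1.69% of genes called lower. Depdc1 averaged 6.27 ± 2.20 CPM in MCT rats of Week-3 and 12.2 ± 1.37 CPM in those of Week-2 (SD, n = 4 each), a log2 fold change of -0.95 (SE 0.195, edgeR adjusted p = 0.0165). Pbk had a log2 fold change of -0.92 (SE 0.190, edgeR adjusted p = 0.0170) and Top2a of -0.75 (SE 0.125, edgeR adjusted p = 0.00496). Mki67 (-0.56, SE 0.182, edgeR adjusted p = 0.106) and Gtse1 (-0.26, SE 0.155, edgeR adjusted p = 0.369) did not pass, although Mki67 did with limma-voom and sample quality weights, for a count of 4. The count fell to 1 without MCT replicate 3 of Week-2 or MCT replicate 4 of Week-3, and to 2 without MCT replicate 4 of Week-2 or MCT replicate 3 of Week-3. The age of the rats and anything else shared by a week cannot be told apart from time after injection.

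PBS rats gave 0 calls among the members in either step, and edgeR called 0% of 16295 genes lower in Week-2 than in Week-1 and 0% higher in Week-3 than in Week-2. At an unadjusted p under 0.05, 2 members (Pbk and Top2a) were lower in Week-2 than in Week-1, beside 2.42% of genes, and 1 (Depdc1) was higher in Week-3 than in Week-2, beside 1.54% of genes. DESeq2 called 0 members in either step, with 35 and 37 genes in all. The largest change was that of Pbk, with a log2 fold change of -1.49 (SE 0.447, edgeR adjusted p = 0.850) in Week-2 over Week-1, with 2.87 ± 0.82 CPM in PBS rats of Week-2 and 8.52 ± 2.91 CPM in those of Week-1 (SD, n = 4 each). Depdc1 had a log2 fold change of 1.16 (SE 0.447) in Week-3 over Week-2. The spread of the PBS rats of Week-1 enters all of these tests.

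Ordered by their mean log2 CPM, the 6 groups placed MCT Week-1 highest and MCT Week-2 next for each of the 5 genes. The MCT rats of Week-3 followed for Mki67, Top2a and Gtse1, and came 4th for Pbk, below PBS Week-1, and for Depdc1, below PBS Week-3. Without PBS replicates 1 and 3 of Week-1, the order turned for Pbk, with means of 2.88 in MCT Week-3 and 2.71 in PBS Week-1 on the log2 CPM scale, and for Top2a PBS Week-1 stood below PBS Week-3. PBS Week-2 was the lowest group for every member except Mki67, whose lowest group was PBS Week-1, by 0.003 on the log2 scale, and these places were the same without the 2 libraries. Of the 25 pairs of neighbours in these orders, none differed after Benjamini-Hochberg adjustment in an exact two-sided permutation test, where 4 rats against 4 allow no p below 0.0286 (adjusted p = 0.0714). The pairs at that smallest p included MCT Week-1 over MCT Week-2 for all 5 genes, MCT Week-2 over MCT Week-3 for Mki67 and Top2a, PBS Week-3 over PBS Week-2 for Top2a, PBS Week-1 over PBS Week-2 for Depdc1, and MCT Week-3 over PBS Week-1 for Gtse1, the last by 1.54 on the log2 scale. The other neighbours overlapped. For Mki67, MCT Week-3 and PBS Week-3 were 0.32 apart (exact permutation p = 0.343).

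The members differ in length, and per kilobase of exon their order was not that of their CPM. In MCT rats of Week-1, Top2a had the highest mean at 42.0 CPM per kilobase, followed by Pbk at 28.1, Gtse1 at 26.3, Mki67 at 23.5 and Depdc1 at 8.88 CPM per kilobase. In PBS rats of Week-1 the means were 10.5 for Top2a, 5.75 for Mki67, 4.65 for Pbk, 3.86 for Gtse1 and 1.49 for Depdc1 CPM per kilobase. Without replicates 1 and 3 they were 7.37 for Top2a, 4.27 for Mki67, 4.09 for Gtse1, 3.55 for Pbk and 1.24 for Depdc1, so that Gtse1 and Pbk changed places. Top2a was first and Depdc1 last in every one of the 6 groups, while the mean of Gtse1 stood above that of Mki67 in the MCT rats of each week and below it in the PBS rats of each week. In MCT rats Gtse1 and Mki67 lay within their spread in Week-1 (26.3 ± 4.37 and 23.5 ± 7.60) and Week-2 (13.1 ± 1.46 and 12.7 ± 1.49, SD, n = 4 each). These orders were not tested. In MCT rats of Week-3 Gtse1, at 10.9 ± 2.16 CPM per kilobase, was close to Top2a, at 10.99 ± 0.95 (SD, n = 4 each).

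Ratios within a rat do not depend on the scaling of the library, so they were used to ask whether the members changed by unequal amounts. In Week-3, Gtse1 over Mki67 had a mean log2 ratio of -1.57 in MCT rats and -2.83 in PBS rats, a difference of 1.25 with no overlap (exact two-sided permutation p = 0.0286, adjusted p = 0.143 over 30 ratios). Gtse1 over Top2a differed by 1.15 in the same way. In Week-2, Pbk over Mki67 was higher in MCT rats by 0.94, Pbk over Top2a by 0.62, Depdc1 over Mki67 by 0.61 and Top2a over Mki67 by 0.32, again with no overlap and the same exact p. No ratio of Week-1 reached it, and without PBS replicates 1 and 3 of that week 1 of 10 ratios had no overlap, Pbk over Top2a at 0.47. None of the 30 ratios passed after adjustment, and 6 had groups that did not overlap, so the unequal changes are a description of these rats.

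**Figure D3:**
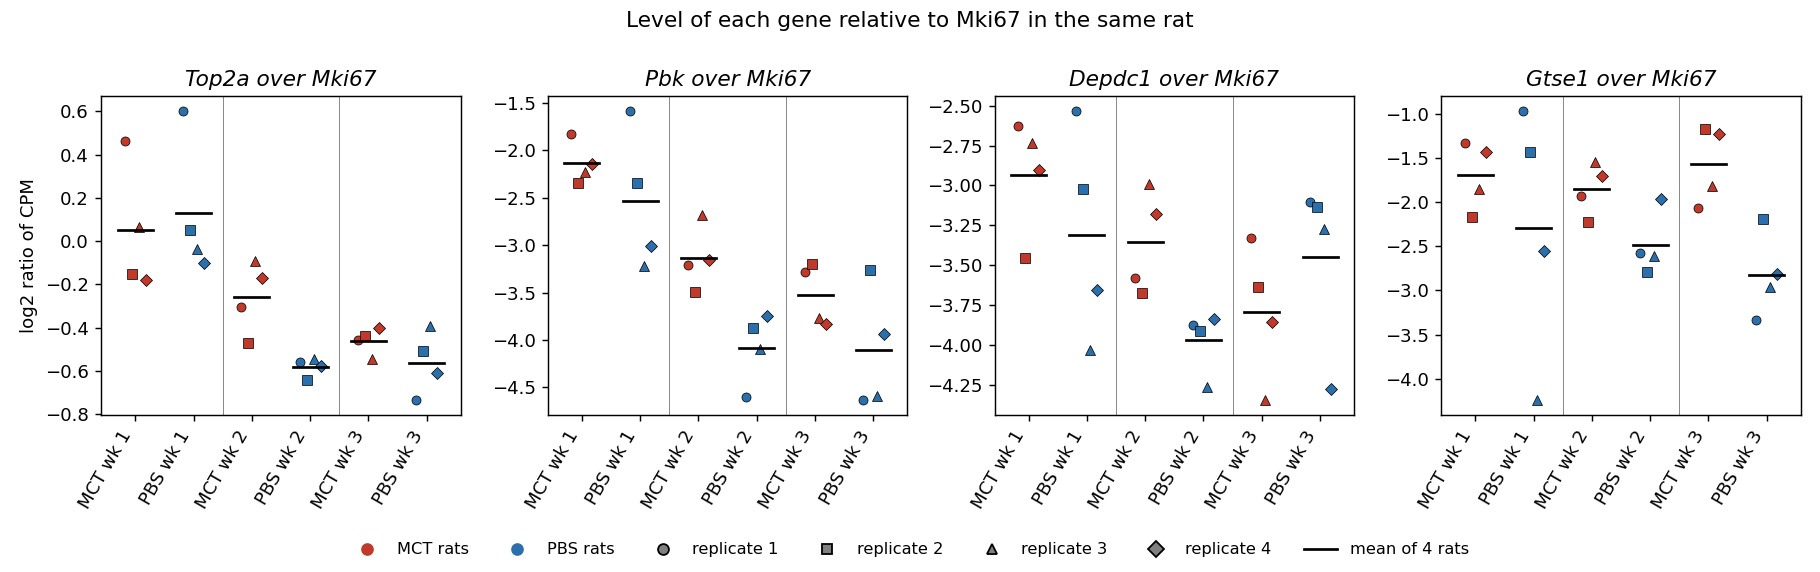
Log2 ratio of the CPM of Top2a, Pbk, Depdc1 and Gtse1 to that of Mki67 in the same rat, by group, with a bar at the mean of 4 rats. The Gtse1 ratio of Week 3 averages -1.57 in MCT rats and -2.83 in PBS rats with no overlap, and PBS replicate 3 of Week 1 has the lowest Gtse1 ratio of all 24 rats.

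The next question was whether rats of 1 group that were high in 1 member were high in the others. The log2 CPM was centred within each group, so that treatment and week drop out, and the 10 pairs were correlated over 24 rats. Mki67 and Top2a varied together: Pearson r was 0.926 (permutation p = 0.00041, adjusted p = 0.0041) and Spearman rho 0.819 (permutation p = 0.00093, adjusted p = 0.0093). Without the 2 rats farthest from the median of Mki67, PBS replicates 1 and 3 of Week-1, r was 0.873 with each rat still centred on its full group, and it was 0.896 over the 22 rats centred anew. It was 0.735 over the 12 MCT rats (permutation p = 0.0878, adjusted p = 0.291) and 0.961 over the 12 PBS rats (permutation p = 0.00112, adjusted p = 0.0112). No other pair passed by Pearson r.

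Pbk and Depdc1 had an r between 0.485 and 0.580 with Mki67 and Top2a, and of 0.468 with each other, none of which passed. By rank, Top2a and Pbk passed, with a rho of 0.601 (permutation p = 0.00549, adjusted p = 0.0274), while their r was 0.545 (permutation p = 0.0271, adjusted p = 0.112). Over the 22 rats without PBS replicates 1 and 3 of Week-1, that rho was 0.458 (permutation p = 0.0638, adjusted p = 0.16) and did not pass. The relation of Top2a and Depdc1 rested on few rats, since r was 0.580 over 24 rats and 0.237 without PBS replicate 3 of Week-1 and PBS replicate 1 of Week-3. For Mki67 and Depdc1, rho was 0.296 over 24 rats (permutation p = 0.235). Their r over 22 rats was 0.450, and 0.081 without MCT replicate 2 of Week-1 and PBS replicate 1 of Week-3. The r of Gtse1 was -0.260 with Mki67 (permutation p = 0.456) and -0.277 with Top2a (permutation p = 0.493). Both turned positive, to 0.212 and 0.211, when PBS replicates 1 and 3 of Week-1 were left out, and the r of Gtse1 with Pbk was then 0.614 (permutation p = 0.028, adjusted p = 0.14) against 0.333 over 24 rats. The r of Gtse1 with Pbk also rested on few rats. Without PBS replicate 1 of Week-2 and PBS replicate 3 of Week-3 it was 0.399 in place of 0.614, and 0.043 in place of 0.333.

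**Figure D4:**
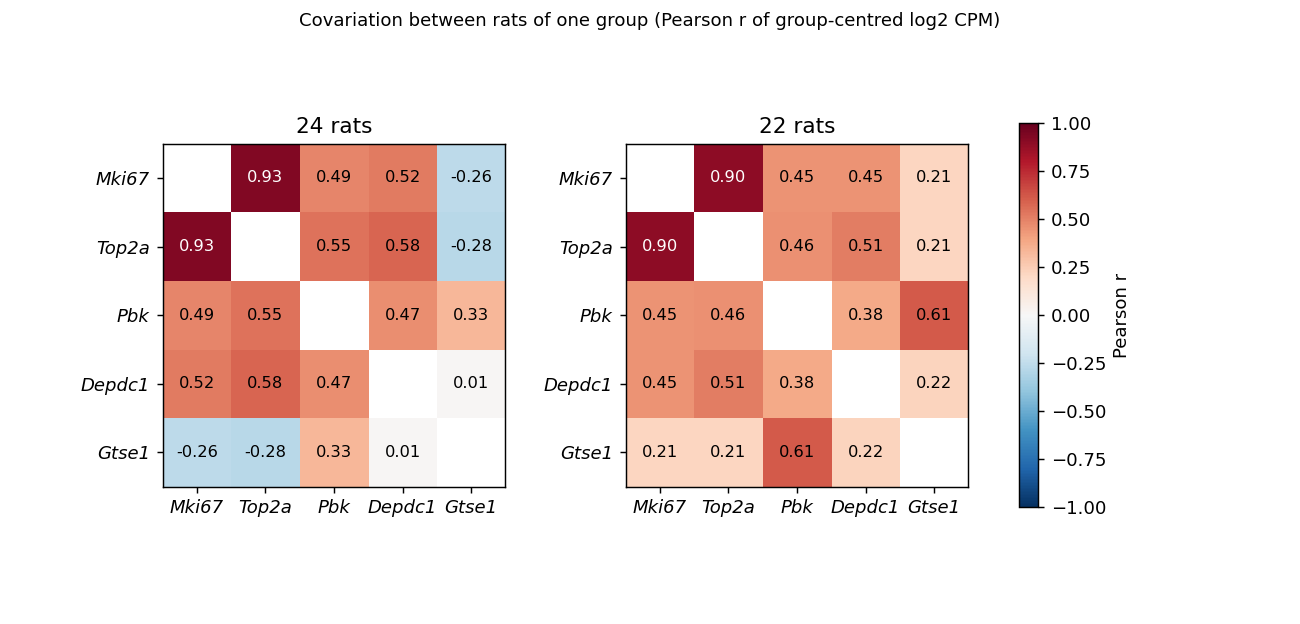
Pearson r between the group-centred log2 CPM of each pair of members over 24 rats (left) and over the 22 rats left after PBS replicates 1 and 3 of Week 1, centred anew (right). Mki67 and Top2a have the highest r in both panels, 0.926 and 0.896, and the r of Gtse1 with Mki67 is -0.260 on the left and 0.212 on the right.

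Against the 17205 other genes, Top2a ranked 2nd in likeness to Mki67 and Mki67 2nd in likeness to Top2a, over 24 rats and again over 22. Mki67 and Top2a ranked 193rd and 74th for Depdc1, and 387th and 220th for Pbk over 24 rats, while over 22 they ranked 702nd and 361st for Depdc1 and 1618th and 1482nd for Pbk. In the other direction the ranks were lower. Over 24 rats Depdc1 and Pbk ranked 3370th and 3685th for Mki67, and 2539th and 2899th for Top2a. Over 22 rats they ranked 1934th and 1976th for Mki67, and 1142nd and 1702nd for Top2a. For Gtse1 no member ranked above 6071st over 24 rats, and Pbk came 449th over 22. The genes with a symbol whose group-centred level had the highest mean r with the 5 members over 24 rats were Kif11, a spindle motor (0.611), Spag5, a spindle protein (0.590), Ncapd2, a condensin subunit (0.582), Cenpi (0.563) and Knl1 (0.563), both proteins of the kinetochore. Over 22 rats they were Ccna2, cyclin A (0.655), Kif11 (0.649), Knl1 (0.642), Cenpi (0.631) and Tpx2, a spindle assembly factor (0.627). A high mean r did not mean likeness to every member. Over 24 rats the lowest r with a member was -0.247 for Knl1, -0.008 for Kif11, 0.087 for Spag5, 0.257 for Ncapd2 and 0.262 for Cenpi. Over 22 rats the lowest r ran from 0.347 for Knl1 to 0.521 for Tpx2. All genes of a library share its depth and its tissue piece, and the median r of a member with all genes was between -0.192 and 0.145 over 24 rats.

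Other genes of the cell cycle were counted from fixed lists, of which only genes with a symbol in the study's supplementary table could be found. That table was made from genes the study called on these samples. The direction, the counts and the medians of the lists are therefore not independent evidence. The share and the median over all genes are no like background for them, and are given for scale. The counts below stand beside a background of 0.0703%, 6% and 11.1% of all genes called higher in Weeks 1, 2 and 3 and of 0.0192%, 3.43% and 11% called lower, and at an unadjusted p in Week-1 beside 2.74% higher and 2.01% lower. Without PBS replicates 1 and 3 the background of Week-1 was 1.53% higher and 0.507% lower. Of 54 genes of the G2 and M phases 36 were found, Mki67, Top2a and Gtse1 among them. In Week-1, 2 of the 36 passed, both higher in MCT rats (Gtse1 and Nuf2, a kinetochore protein, log2 fold change 2.63), and 30 were higher at an unadjusted p under 0.05, with a median log2 fold change of 1.69 over the 36. Without PBS replicates 1 and 3, 29 passed, all higher, at a median of 2.06. In Week-2, 29 of 36 were higher and 0 lower, at a median log2 fold change of 1.38 against -0.002 over all genes, led by Anln, an actin binder of the cleavage furrow (2.12), Ckap2l, a spindle protein (2.02), Gtse1 and Cenpe, a kinetochore motor (1.97). In Week-3, 14 of 36 were higher and 4 lower, at a median of 0.62. Birc5, which encodes survivin, had a log2 fold change of 1.93 then, Gas2l3 of 1.55 and Gtse1 of 1.54, while G2e3, a ubiquitin ligase of the G2 phase, was lower in MCT rats at -1.71.

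Genes of the S phase had lower medians in each week, with 22 of 43 found. In Week-1 edgeR called 0 of the 22, 17 were higher at an unadjusted p under 0.05, at a median of 1.13, and 14 passed without PBS replicates 1 and 3. In Week-2, 15 of 22 were higher in MCT rats, at a median of 0.83, led by Rrm2, a subunit of ribonucleotide reductase (2.12). In Week-3, 2 were higher and 2 lower, at a median of 0.28, with Mcm5, a subunit of the replicative helicase, at 0.89 and Ccne2, cyclin E, at -0.89.

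Among the genes that act with Ki-67 and Top2a on chromosome structure, 8 of 12 were found. In Week-1 edgeR called 0 of the 8, 7 were higher at an unadjusted p under 0.05, and 6 passed without PBS replicates 1 and 3. In Week-2, 7 of the 8 were higher in MCT rats, Ncaph (1.79) and Ncapg (1.49) of the condensin I complex leading, and 1 was higher in Week-3 (Ncaph, 1.02). Top2b, the paralog of Top2a that resting cells also express, averaged 219 ± 20.8 CPM in MCT rats and 208 ± 84.4 CPM in PBS rats of Week-1 (184 CPM without replicates 1 and 3), and 153 ± 22.1 CPM in MCT rats and 254 ± 23.1 CPM in PBS rats of Week-3 (SD, n = 4 each). Its log2 fold change was 0.08 in Week-1 (SE 0.288, edgeR adjusted p = 1.00, and 0.26 without replicates 1 and 3, not past the test), -0.11 in Week-2 (SE 0.0893, edgeR adjusted p = 0.426) and -0.76 in Week-3 (SE 0.122, edgeR adjusted p = 0.00134). Whether the paralogs differed from each other was not tested.

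Of the partners and paralogs of Pbk, Depdc1 and Gtse1, 4 of 11 were found, and 2, 4 and 3 of them were higher in MCT rats in Weeks 1, 2 and 3. Depdc1b, the paralog of Depdc1, had log2 fold changes of 1.86 (SE 0.401, edgeR adjusted p = 0.187), 1.20 (SE 0.3004, edgeR adjusted p = 0.0186) and 0.04 (SE 0.401, edgeR adjusted p = 0.950) in Weeks 1, 2 and 3, beside 2.58, 2.01 and -0.15 for Depdc1. Without PBS replicates 1 and 3 it passed in Week-1 too, at 1.89, and all 4 genes did. Prc1, which bundles the microtubules of the spindle midzone, passed in every week, at 1.90, 1.28 and 0.62. Cdkn1a, a target of p53 that encodes the cell cycle inhibitor p21, also passed in every week, at 2.59, 1.48 and 1.98.

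Of 20 regulators of cell cycle promoters 9 were found, and 1 was higher in Week-1 (2 without PBS replicates 1 and 3), 4 in Week-2 and 1 in Week-3, when 3 were lower. Foxm1, a factor that activates genes of the G2 and M phases, averaged 17.9 ± 2.08 CPM in MCT rats and 10.1 ± 0.67 CPM in PBS rats of Week-2 (SD, n = 4 each). Its log2 fold change was 1.74 in Week-1 (SE 0.383, edgeR adjusted p = 0.194), 0.83 in Week-2 (SE 0.124, edgeR adjusted p = 0.00107) and 0.65 in Week-3 (SE 0.251, edgeR adjusted p = 0.0706), and it passed in Week-1 without PBS replicates 1 and 3, at 1.58. The gene higher in Week-3 was Cdkn1a (1.98), and those lower were Cdkn1b (-1.02), Rbl2 (-0.81) and Rb1 (-0.73). All 4 are known to restrain the cycle, so genes of that role passed in both directions.

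Markers of other cell types moved over the same weeks, and their part in the results for the members was not tested. They were found through the same supplementary table, with the same limit. Their counts stand beside 0.0703%, 6% and 11.1% of all genes called higher in Weeks 1, 2 and 3. The shares called lower were 0.0192%, 3.43% and 11%. At an unadjusted p in Week-1 they were 2.74% higher and 2.01% lower. Of 14 macrophage and monocyte markers 8 were found, and 0, 6 and 6 of them were higher in MCT rats in Weeks 1, 2 and 3 (2 in Week-1 at an unadjusted p under 0.05). Their sum ran from 737 to 1044 CPM in MCT rats and from 474 to 803 CPM in PBS rats of Week-1 (646 at most without replicates 1 and 3). It ran from 1269.8 to 2297 CPM in MCT rats and from 529 to 812 CPM in PBS rats of Week-2, and from 2053 to 3118 CPM in MCT rats and from 602 to 888 CPM in PBS rats of Week-3. The groups were thus farthest apart in this sum in Week-3, although 2 of the 8 markers did not pass then.

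Of 10 endothelial markers 6 were found, and 0, 4 and 6 of them were lower in MCT rats in Weeks 1, 2 and 3, with 2 lower in Week-1 at an unadjusted p under 0.05. Their sum ran from 3529 to 4623 CPM in MCT rats and from 2885 to 8795 CPM in PBS rats of Week-1 (3773 to 5611 without replicates 1 and 3). It ran from 2868 to 3366 CPM in MCT rats and from 5089 to 6269 CPM in PBS rats of Week-2, and from 1579 to 1926 CPM in MCT rats and from 5843 to 6402 CPM in PBS rats of Week-3. Of 13 T, B and NK cell markers 6 were found, with 0, 2 and 5 lower in MCT rats and 1 higher in Week-3, and their sum ran from 92.8 to 146 CPM in MCT rats and from 169 to 282 CPM in PBS rats of Week-3. In the earlier weeks those sums overlapped, from 115 to 133 CPM in MCT rats and from 81.6 to 163 CPM in PBS rats of Week-1 (141 at most without replicates 1 and 3), and from 79.0 to 120.5 CPM in MCT rats and from 116 to 135 CPM in PBS rats of Week-2.

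The 5 erythroid markers found, of 7 listed, summed to between 572 and 2403 CPM in MCT rats and between 4506 and 11591 CPM in PBS rats of Week-1 (5140 to 6696 without replicates 1 and 3), and edgeR called 0 of them then, although all 5 were lower at an unadjusted p under 0.05. In Week-2, 3 of the 5 were lower, at 399 to 1088 CPM in MCT rats and 782 to 2059 CPM in PBS rats, and in Week-3 none passed, at 166 to 524 CPM in MCT rats and 91.1 to 855 CPM in PBS rats. The sums did not overlap between the groups in Week-1, and they overlapped in the later weeks.

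Of the mast cell and neutrophil markers 5 of 10 were found. In Week-2, 2 were higher (Cpa3 and Fcer1a, of mast cells) and 2 lower (Kit and Csf3r). In Week-3 Cpa3 and Fcer1a were higher and Kit lower. Kit is also a marker of mast cells, with log2 fold changes of -1.10 in Week-2 and -1.27 in Week-3, so the mast cell markers passed in both directions. Their sum ran from 190 to 311 CPM in MCT rats and from 381 to 724 CPM in PBS rats of Week-1 (394 at most without replicates 1 and 3), and from 399 to 897 CPM in MCT rats and from 371 to 401 CPM in PBS rats of Week-3. Of 6 smooth muscle markers 2 were found, 1 higher in Week-2 and 2 in Week-3, when they summed to between 238 and 494 CPM in MCT rats and between 102 and 204 CPM in PBS rats. Of 8 fibroblast markers 4 were found, 2 higher in Week-2 and 2 in Week-3, with sums from 2490 to 2764 CPM in MCT rats and from 1416 to 1871 CPM in PBS rats of Week-2. Of 9 epithelial markers 3 were found, and 1 was lower in each of those weeks. Without PBS replicates 1 and 3 of Week-1, edgeR called 1 T, B and NK cell marker higher, 1 mast cell and neutrophil marker lower and none of the other marker lists in that week. No marker was at 0 in all libraries of a group.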

How the data were processed

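Lung tissue of 24 rats, a piece from each, was sequenced as poly(A) RNA from a directional kit, 1 library per rat. The authors deposited raw counts per gene, made per the study's methods with HISAT2 2.0.5 and featureCounts 2.0.3 on Rnor_6.0. The annotation release, strand setting and treatment of shared reads are not given in the sources used here. Counts were tested with edgeR 4.0.16 (R 4.3.3): filterByExpr, TMM factors, quasi-likelihood F test, Benjamini-Hochberg adjustment over all genes tested. A gene passed at an adjusted p under 0.05 and a fold above 1.5, and a change between weeks at an adjusted p under 0.05 alone. Weeks were fitted separately (8 libraries), changes between weeks over 24 libraries, and MCT and PBS rats over time in 12 each. The standard error is the log2 fold change divided by the square root of F. Values are TMM-scaled CPM, and log2 CPM used a prior count of 2. Covariation used 100000 permutations within groups, and groups of 4 were compared by exact permutation over 70 assignments. The edgeR tests were tried on simulated counts with planted fold changes. DESeq2 1.42.0, limma-voom 3.58.1 with sample quality weights, other scalings and filters, a replicate block and fits without single libraries were the alternatives. No pair of the 36 within groups looked like 1 library deposited more than once.

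The members, lists and tests were chosen with earlier results of these data known. Symbols came from the study's supplementary table, of which a shortened copy named 3275 of 32883 gene IDs, and its comparison values were not used. Named genes are the 5 members, the 5 most alike by mean r, at most 4 passing genes per list and week with the largest change, and Foxm1, Cdkn1a, Depdc1b, Top2b and Prc1. Markers named among cells (Cpa3, Fcer1a, Kit, Csf3r, Ager, Sftpa1 and Scgb1a1) fall under the lists. Promoters came from RefSeq on GRCr8.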

Additional observations from a re-analysis of the deposited data

Results flagged for a closer look

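The gap between 1 rat and its nearest neighbour was taken as a share of the range of the group, both on the log2 CPM scale. In 3 of the 30 sets of 4 rats (5 genes in 6 groups) this share was above Dixon's limit for 4 values. Chance passes that limit in about 1 of 20 sets. Levels below are in CPM. Top2a in PBS replicate 3 of Week-1 was at 114 CPM, against 37.9 to 44.5 CPM in the other PBS rats, a share of 0.856, and that library also stood apart in its total and its genes detected. Gtse1 in MCT replicate 2 of Week-2 was at 28.9 CPM, against 36.5 to 36.7 CPM in the other MCT rats, a share of 0.977. Gtse1 in PBS replicate 3 of Week-3 was at 5.82 CPM, against 10.9 to 11.4 CPM in the other PBS rats, a share of 0.932.

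The difference between MCT and PBS rats was smaller in Week-3 than in Week-1 by a test of the change itself for 4 genes, at -1.79 for Mki67, -2.71 for Depdc1, -1.62 for Top2a and -1.75 for Pbk on the log2 scale.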

How the results depend on the processing

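The 5 calls of Week-2 and the 5 falls in MCT rats from Week-1 to Week-2 held under every alternative run. In Week-1 3 members passed, and 5 did with DESeq2, with limma-voom (always run with sample quality weights, which give less weight to libraries that deviate), at an unadjusted p, with PBS replicates 1 and 3 both left out, in 1 fit of all 24 libraries and in 1 fit of 22 (an alternative chosen after seeing the data), with 0 to 5 when single libraries were left out. In Week-3 1 passed, and 2 did with DESeq2, at an unadjusted p and in the fit of 22, with 1 whichever single library was left out. For the change from Week-1 to Week-2 the count was 0, and 1 at an unadjusted p. For Week-2 to Week-3 it was 0, then 1 with at least 10 counts in every library or with DESeq2, and 4 with limma-voom, at an unadjusted p, without both PBS libraries or with 16 libraries. It was 0 to 2 without single libraries, 2 without PBS replicate 3 of Week-1 and 1 without PBS replicate 1 of Week-1, PBS replicate 4 of Week-3 or MCT replicate 1 of Week-3. For Week-1 to Week-3 it was 4, then 1 with 16 libraries, and 1 to 5 without single libraries. MCT rats of Week-3 against Week-2 gave 3, then 4 with limma-voom, and 1 to 3 without single libraries. PBS rats gave 0 in both steps, then 2 (Week-2 against Week-1) and 1 (Week-3 against Week-2) at an unadjusted p, and 1 with limma-voom in the later step.

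Some signs turned. Depdc1 in Week-3 ran from -0.39 to 0.36 without single libraries. Mki67 in PBS rats of Week-2 against Week-1, at -0.17, was 0.23 with limma-voom, 0.22 without both PBS libraries and -0.46 to 0.40 without single libraries. The r of Gtse1 with Mki67 was 0.212 without both PBS libraries and -0.501 to 0.121 without single libraries. With Top2a it was 0.211, and -0.499 to 0.195. With Depdc1 it was -0.101 in the 12 MCT rats, and -0.149 to 0.230. Of 10 pairs 1 passed, 0 in the 12 MCT rats and 1 to 2 without single libraries. The causes were not tested.

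Replicate numbers showed no pairing of the rats in Weeks 2 and 3, where no same-numbered pair had a correlation of deviations over 0.1. The 2 of 12 pairs over 0.1 were replicates 1 (0.268) and 3 (0.164) of Week-1, whose PBS libraries stood apart. Pairing in Week-1 could therefore not be judged from these correlations. With the replicate block, 0 members passed in Week-1 and 2 for the change from Week-1 to Week-3, and no other count of members changed.

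Counts over all genes moved more. Week-1 gave 14 genes, but 54 with at least 10 counts, 142 with limma-voom, 263 with DESeq2, 338 without both PBS libraries, 553 and 1383 in the fits of 24 and 22, 743 at an unadjusted p and 0 with the block, and 0 to 164 without single libraries. Week-2 gave 1519, and 400 in the fit of 24 or 2904 with no fold limit. Week-3 gave 3566, and 1829 in the fit of 24. The change from Week-1 to Week-2 gave 0, but 39 with DESeq2 and 900 at an unadjusted p. The change from Week-2 to Week-3 gave 12, but 21 with at least 10 counts, 228 with DESeq2, 1427 without both PBS libraries, 1750 at an unadjusted p, 2834 with 16 libraries, 3681 with limma-voom and 0 with the block. That from Week-1 to Week-3 gave 754, but 147 with 16 libraries, 255 with the block, 1369 with limma-voom, 1764 with DESeq2, 3601 at an unadjusted p and 4086 without both PBS libraries. MCT rats gave 747 in the first step, but 1132 with DESeq2, 1134 with no fold limit and 1657 at an unadjusted p, and 420 in the second, but 782 with DESeq2, 955 with limma-voom and 1301 at an unadjusted p. PBS rats gave 0 in both, but 35 and 37 with DESeq2 and 787 and 443 at an unadjusted p, and in the second step 643 with limma-voom and 15 without both PBS libraries. The number of rats, 4 a group, limits the precision of every test. Gene lists, levels and ratios of Week-1 without both PBS libraries were computed after seeing the data. Pbk at 52 counts in 1 library was the lowest count of a member.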
